A study of Mus musculus with 19 samples.

Results

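Ferritin, transferrin receptor and their regulators are described here from 9 genes of cellular iron handling: Fth1, Ftl1, Tfrc, Slc40a1, Slc11a2, Hmox1, Cp, Aco1 and Ireb2. They were measured by ribosome profiling, input RNA sequencing and single-cell RNA sequencing of a mouse melanoma. They were picked by name, as a fixed list of 9 genes among the 55359 rows of the count tables, and each of the 9 was found in every table. The list was chosen with earlier results of these data known. The tumour line was B16-F10, a melanoma of C57BL/6 origin. KO cells carried a knockout of Mettl5, which encodes a methyltransferase of small ribosomal subunit RNA, and SCR cells carried a scrambled control. Cultured cells gave 2 libraries of ribosome footprints and 2 of input RNA for each genotype, all grown in serum-containing medium, and cells for footprints had received cycloheximide (100 µg/ml, 8 min) before lysis. Tumours grown from KO or SCR cells gave 1 single-cell library each, of live cells sorted for the leukocyte antigen CD45, so that KO and SCR there name the inoculated tumour cells and not the host cells that were sorted. The labels name C57BL/6N mice as hosts for the blood samples and give no strain, age or number of animals for the tumours. Blood T-cell receptor libraries of the series hold no values for these genes.

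Cells keep free iron within limits by storing it in ferritin, importing it through the transferrin receptor and exporting it through ferroportin. The iron regulatory proteins IRP1 (Aco1) and IRP2 (Ireb2) bind a hairpin, the iron-responsive element, when iron is scarce. Bound near the start of ferritin and ferroportin mRNA they block translation, and bound in the 3′ part of Tfrc mRNA they protect it from decay. In macrophages the same genes handle iron set free from haem by haem oxygenase 1 (Hmox1).

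Library totals were 43601773 to 48692578 counts in KO and 38968000 to 43083013 counts in SCR input RNA, and 14555963 to 21366608 counts in KO and 28059683 to 31301806 counts in SCR footprints. Mettl5 itself had 303 and 268 counts in KO against 369 and 414 counts in SCR input RNA (log2 fold change -0.56, SE 0.13, adjusted p = 0.0284), and the edited position is not stated, so whole-gene counts check the knockout only in part. The labels do not say whether KO cells are 1 clone or a mixed population, and their count columns are named POOL. Separate cultures for the replicates are not stated either, and p-values therefore measure the spread between these libraries. Of 7 melanocyte markers, all were tested and Mlana and Dct were higher and Mitf and Tyr lower in KO input RNA. Of all genes tested there, 9.56% were higher and 7.21% lower. Of 7 blood cell markers only 3 had enough input RNA counts to test, and none of the 3 passed.

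In input RNA the question was whether cultured KO cells held other transcript levels of the iron genes than cultured SCR cells. Both ferritin subunits, the transferrin receptor and haem oxygenase 1 rose in KO cells, by log2 fold changes of 0.24 to 0.44, and ceruloplasmin (Cp), a copper-carrying ferroxidase that helps load iron onto transferrin, fell by 1.10 on the log2 scale. That made 4 of 9 genes higher and 1 lower, where 9.56% of 20025 genes tested were higher and 7.21% lower. Ferroportin, the divalent metal transporter Slc11a2 and the genes of both iron regulatory proteins did not pass the test. Less RNA per cell and fewer cells of one kind cannot be told apart in such bulk libraries.

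Ferritin stores iron in a shell of heavy and light chains. The light chain gene Ftl1 (ENSMUSG00000050708.17, coding region on GRCm39 chromosome 7, 45107534 to 45109055, minus strand) had 3537 and 3199 CPM (counts per library total, scaled with TMM factors) in KO against 2709.9 and 2693 CPM in SCR input RNA. Each KO library was above each SCR library (log2 fold change 0.32, SE 0.06, adjusted p = 0.0125). The heavy chain gene Fth1 (ENSMUSG00000024661.8, chromosome 19, 9960234 to 9962303, plus strand), which encodes the ferroxidase subunit, had 733 and 669 CPM in KO against 536 and 604 CPM in SCR cells, again without overlap (0.30, SE 0.07, adjusted p = 0.0314). Tfrc (ENSMUSG00000022797.17, chromosome 16, 32432009 to 32449151, plus strand), which takes up iron bound to transferrin, had 403 and 404 CPM in KO against 328 and 354 CPM in SCR cells (0.24, SE 0.05, adjusted p = 0.0225). In all 3 genes both KO values lay above both SCR values. How many of all genes separate in this way was not counted, here or in the comparisons below. In this fit by edgeR, 6445 of 20025 genes had an unadjusted p below 0.05.

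Hmox1 (ENSMUSG00000005413.9, chromosome 8, 75820378 to 75826644, plus strand), which cleaves haem to biliverdin, carbon monoxide and iron, had 36.6 and 35.2 CPM in KO against 27.1 and 25.9 CPM in SCR input RNA (log2 fold change 0.44, SE 0.07, adjusted p = 0.00932). Cp (ENSMUSG00000003617.17, chromosome 3, 20011448 to 20059719, plus strand) had 54.1 and 59.1 CPM in KO against 118 and 124 CPM in SCR input RNA. Its groups lay furthest apart of the 9 genes (log2 fold change -1.10, SE 0.06, adjusted p = 0.000436), and its adjusted p stayed below 0.05 in each of 10 alternative fits. The calls of the other 4 genes were each lost in at least 1 fit that left out an SCR library. Without SCR replicate 1, Fth1, Ftl1 and Tfrc had adjusted p of 0.200, 0.0771 and 0.218, and without SCR replicate 2, Ftl1, Tfrc and Hmox1 had 0.0712, 0.0603 and 0.0523. Fth1 also missed the threshold without KO replicate 1, at 0.0683, and without a filter on low counts Fth1, Ftl1 and Tfrc had 0.110, 0.0538 and 0.0746.

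Slc40a1 (ENSMUSG00000025993.11, chromosome 1, 45948569 to 45964423, minus strand) encodes ferroportin, the exporter of iron from cells. It had the fewest input RNA counts of the 9 genes, with 213 and 166 counts in KO against 241 and 274 counts in SCR input RNA. Scaled, these were 4.54 and 3.85 CPM in KO against 6.03 and 6.23 CPM in SCR cells (log2 fold change -0.55, SE 0.16, adjusted p = 0.0583). Slc11a2 (ENSMUSG00000023030.17, chromosome 15, 100286968 to 100310105, minus strand), which moves iron across endosomal and intestinal membranes, had 85.2 and 84.7 CPM in KO against 94.6 and 90.9 CPM in SCR cells (-0.13, SE 0.05, adjusted p = 0.145). For both transporters the KO values lay below the SCR values without passing the threshold. Ireb2 (ENSMUSG00000032293.9, chromosome 9, 54771162 to 54817022, plus strand) had 141 and 145 CPM in KO against 155 and 161 CPM in SCR cells (-0.14, SE 0.05, adjusted p = 0.0886). Aco1 (ENSMUSG00000028405.10, chromosome 4, 40163749 to 40197664, plus strand), whose protein serves as cytosolic aconitase or as IRP1, had 59.6 and 57.6 CPM in KO against 62.5 and 58.6 CPM in SCR cells (-0.05, SE 0.06, adjusted p = 0.638).

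**Figure D1:**
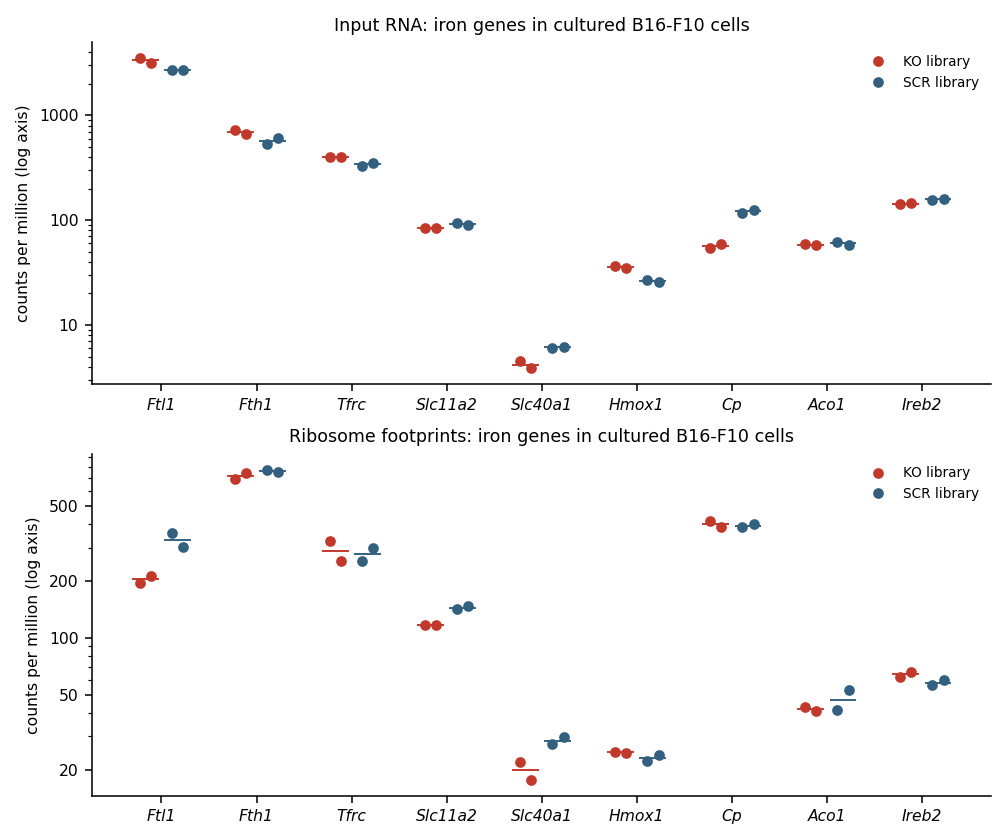
CPM (log axis) of the 9 iron genes in each library of cultured cells, input RNA above and footprints below; points are libraries and lines the mean of 2. In input RNA the KO points of Ftl1, Fth1, Tfrc and Hmox1 lie above and those of Cp below the SCR points, while in footprints Ftl1 lies lower in KO libraries and Cp overlaps.

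The stretches around TATA-like letters near the RefSeq starts of 4 of the 5 genes that changed in input RNA are given here, because a window of each of these 4 held such letters on the gene's strand. RefSeq windows (GRCm38.p6, 250 bases before to 50 after a start) were used for 6 of the 9 genes, in 9 windows, and not for Hmox1, Slc40a1 and Slc11a2. Each line gives 30 bases on the gene's strand, with TATAAA or TATAAG in capitals. The capitals begin 25 bases before the start in Cp and 172 before it in Tfrc, and 17 and 26 bases after it in Ftl1 and Fth1, whose RefSeq starts therefore lie upstream of these letters.
Ftl1, chr7:45459850-45459879: gtcaacatgcTATAAAaggagcgctccttg
Fth1, chr19:9982662-9982691: aggatcccgcTATAAGtgcggcccgctgtc
Tfrc, chr16:32608940-32608969: ggggccgagcTATAAGctttgggtgggagg
Cp, chr3:19957214-19957243: aagccctattTATAAAattgcttgcttctg
Aco1 and Ireb2 held neither motif in their windows, and 18.76% of all 32851 windows held 1 of them on either strand, or 12.33% on the gene's strand. These shares are per window, while the 6 genes had 9 windows. Any link of the letters to the RNA changes was not tested. The letters TGACNNNGC were in no window of the 6 genes and in 12.39% of all windows. CAGTGN, the loop letters of the iron-responsive element, was in windows of Ftl1 and Tfrc and in 55.82% of all windows. The whole hairpin, searched as a C, 5 bases, CAGTGN and 5 bases that pair with the first 5, was in none of the 6 genes' windows and in 0.15% of all windows. The windows end 50 bases after the annotated start and cover little of each transcript, so that the elements themselves are not shown.

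Footprints showed how many ribosome-protected fragments each transcript gave. None of the 9 genes passed the test by edgeR, where 2.29% of 16878 genes did, 0.51% higher and 1.78% lower. At an unadjusted p below 0.05 the edgeR fit held 4224 genes. DESeq2 called more, 1288 of the 16878 genes, and among them 2 of the 9. These were Ftl1 and Slc11a2, which had fewer footprints in KO cells. Cp, whose RNA was lower in KO cells, had footprint levels that overlapped between genotypes.

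Ftl1 had 194 and 213 CPM in KO against 359 and 302 CPM in SCR footprints, with both KO libraries below both SCR libraries (log2 fold change -0.70, SE 0.11, adjusted p = 0.0532). Slc11a2 had 117 and 116 CPM in KO against 142 and 147 CPM in SCR footprints (-0.31, SE 0.05, adjusted p = 0.0627). Without a filter on low counts the adjusted p was 0.0204 for Ftl1 and 0.0486 for Slc11a2, and by DESeq2 it was 3.58e-08 and 0.00151. The fit without the filter called 755 of 37652 genes. Slc40a1 had 22.1 and 17.6 CPM in KO against 27.3 and 29.7 CPM in SCR footprints (-0.53, SE 0.13, adjusted p = 0.0995). Its log2 fold change in footprints was close to that in input RNA.

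Fth1, the gene with the most footprints, had 692 and 746 CPM in KO against 777 and 751 CPM in SCR footprints (log2 fold change -0.09, SE 0.07, adjusted p = 0.519). Cp had 416 and 387 CPM in KO against 384 and 401 CPM in SCR footprints (0.03, SE 0.07, adjusted p = 0.814). Tfrc had 323 and 254 CPM in KO against 254 and 299 CPM in SCR footprints, with the largest SE of the 9 genes (0.06, SE 0.15, adjusted p = 0.834). The groups of Cp and of Tfrc overlapped, and the sign of both changes turned in some alternative fits. Hmox1 had 24.9 and 24.5 CPM in KO against 22.3 and 23.9 CPM in SCR footprints (0.10, SE 0.07, adjusted p = 0.457). Ireb2 had 62.0 and 66.0 CPM in KO against 56.3 and 59.3 CPM in SCR footprints (0.15, SE 0.07, adjusted p = 0.247), and Aco1 had 42.7 and 41.0 CPM in KO against 41.5 and 52.6 CPM in SCR footprints (-0.17, SE 0.12, adjusted p = 0.458).

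Per kilobase of coding sequence, the ferritin chains led the footprint levels in both genotypes. Fth1 stood first with 1268 and 1366 CPM per kb in KO against 1422 and 1376 CPM per kb in SCR footprints. Ftl1 came next with 353 and 388 CPM per kb in KO against 655 and 550.2 CPM per kb in SCR footprints. Tfrc (111 to 141 CPM per kb over the 4 libraries) and Cp (118 to 128) followed without differing beyond their spread, and Slc11a2 lay below them with 68.2 to 86.0. Hmox1 (25.8 to 28.7) and Ireb2 (19.5 to 22.8) came after, and Aco1 (15.4 to 19.7) and Slc40a1 (10.3 to 17.4) overlapped at the low end.

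Translational efficiency was taken as footprints per input RNA and tested as the genotype-by-assay term of a model of 8 libraries. Among the 9 genes Ftl1 gave fewer footprints per RNA in KO cells and Cp gave more. That is 1 gene higher and 1 lower, where 0.788% of 23211 genes tested were higher and 3.4% lower. None of the other 7 passed the threshold: the estimate was below 0 for 6 of them, close to it for Slc40a1, and above 0 for Ireb2.

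Ftl1 had a ratio of footprint CPM to mean input CPM of 0.0578 and 0.0634 in the KO against 0.133 and 0.112 in the SCR footprint libraries, with 0.5 CPM added to each value. The KO ratios lay at the 1.5th and 1.9th percentile of all genes and the SCR ratios at the 6.1th and 4.9th. KO and SCR ratios did not overlap, but both ratios of a genotype share the same input mean. Their spread therefore leaves out that of input RNA, and the share of all genes without overlap was not counted. The change was a log2 fold change of -1.06 (SE 0.14, adjusted p = 0.0205). Cp had ratios of 7.29 and 6.79 in KO against 3.16 and 3.30 in SCR libraries, at the 93.2th and 93th percentile in KO and the 86.1th and 86.6th in SCR cells. Its change was of the same size and opposite sign (1.09, SE 0.10, adjusted p = 0.0143). Ftl1 had more RNA and, without passing the test, fewer footprints in KO cells, while Cp had less RNA and overlapping footprints. These tests share all libraries with the comparisons above and are not independent of them.

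Both calls were lost when 1 of 3 input RNA libraries was left out. The adjusted p of Ftl1 and Cp was 0.0895 for each gene without KO input replicate 1, 0.108 and 0.0740 without SCR input replicate 1, and 0.105 and 0.0936 without SCR input replicate 2, fits in which 0 to 3 genes of all passed. Left out singly, KO input replicate 2 and each footprint library kept both genes below 0.05. The log2 fold change over all 14 alternative fits stayed between -1.25 and -0.99 for Ftl1 and between 0.99 and 1.15 for Cp.

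**Figure D2:**
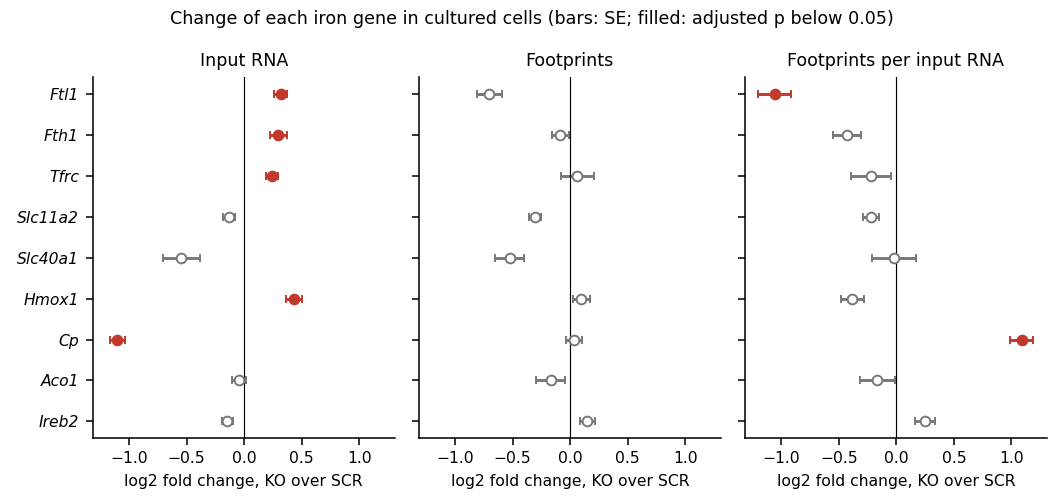
Log2 fold change (KO over SCR) of each gene in input RNA, footprints and footprints per input RNA; points are estimates of the fit across all genes, bars their SE, and filled points have an adjusted p below 0.05. Ftl1 and Cp stand at -1.06 and 1.09 in the panel of footprints per input RNA, and 5 genes are filled for input RNA.

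The other members kept closer to 0 in footprints per RNA. Fth1 had ratios of 0.987 and 1.06 in KO against 1.36 and 1.32 in SCR libraries (log2 fold change -0.42, SE 0.12, adjusted p = 0.0984). DESeq2, which called 1615 of 23211 genes, called Fth1 with an adjusted p of 0.00534. Hmox1 had ratios of 0.699 and 0.688 in KO against 0.845 and 0.903 in SCR libraries (-0.38, SE 0.10, adjusted p = 0.0770). Their KO and SCR ratios, again over the same input mean within a genotype, did not overlap. The share of all genes without overlap was not counted. Slc11a2 had a change of -0.22 (SE 0.07, adjusted p = 0.118) and Tfrc of -0.22 (SE 0.17, adjusted p = 0.567). Ireb2 had ratios of 0.435 and 0.463 in KO against 0.358 and 0.377 in SCR libraries (0.25, SE 0.09, adjusted p = 0.150). Slc40a1 kept a ratio of 4.81 and 3.86 in KO against 4.19 and 4.55 in SCR libraries. Its ratios lay between the 88.5th and 90.1th percentile. Aco1 had 0.731 and 0.703 in KO against 0.688 and 0.870 in SCR libraries. The log2 fold change was -0.02 (SE 0.19) for Slc40a1 and -0.16 (SE 0.16) for Aco1. Ferroportin RNA, low in these cells, thus carried many footprints per RNA in both genotypes.

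The authors' deposited table calls the same 2 members at an adjusted p below 0.05, among 1833 genes or 10.9% of the 16872 with a value. For Cp the authors' deposited table lists a translational efficiency of 3.83 in KO and 1.82 in SCR cells, a log2 fold change of 1.08. For Ftl1 the authors' deposited table lists 0.0327 in KO and 0.0686 in SCR cells, a log2 fold change of -1.07 with an adjusted p of 8.48e-07. The authors' ratios of both genes lie below the ratios given above, so the levels are not on the same scale. The series holds no other footprint libraries, so these calls are not independent of the fit above. Hmox1 and Fth1 come next in the authors' deposited table, with log2 fold changes of -0.39 and -0.44 and adjusted p of 0.0548 and 0.0590.

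Ferritin transcripts have near-identical pseudogene copies, and a short footprint may match either. In footprints, 3 copies of Ftl1 (Ftl1-ps1, Ftl1-ps2 and Ftl2-ps) held 54.5% and 57.1% of the summed counts in KO and 55.6% and 54.6% in SCR libraries. In input RNA the same copies held 3.005% and 2.84% in KO against 2.24% and 2.51% in SCR libraries. Summed over parent and copies, Ftl1 had 427 and 496 CPM in KO against 810 and 666 CPM in SCR footprints, and 0.123 and 0.143 footprints per input RNA in KO against 0.293 and 0.241 in SCR cells. The level of footprints per RNA was thus higher with the copies counted, and the change kept its size (log2 fold change -1.04, adjusted p = 0.0242). Fth1 and its 3 copies summed to 868 and 933 CPM in KO against 942 and 914 CPM in SCR footprints, with 20.3% and 20.1% in the copies in KO and 17.6% and 17.8% in SCR libraries. The summed change in footprints per RNA was -0.38 for Fth1 (adjusted p = 0.133).

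**Figure D3:**
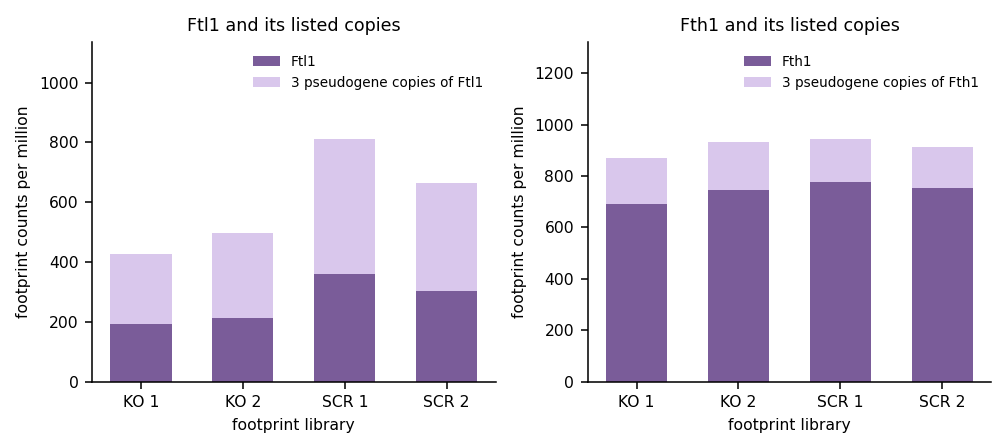
Footprint CPM of Ftl1 (left) and Fth1 (right) in each footprint library, split into the gene itself and its 3 listed pseudogene copies. The KO bars of Ftl1 reach 427 and 496, below the SCR bars of 810 and 666, with the copies over 54% of each bar; the bars of Fth1 lie between 868 and 942.

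The authors' list of translated reading frames places an upstream reading frame on 4 of the 9 genes (44.4%), against 30.3% of the 12270 genes with an annotated frame. On Fth1 a frame of 23 codons overlaps the start of the coding region (GRCm39 chromosome 19, 9960166 to 9960234, plus strand), beginning 68 bases before it. Slc40a1 carries one of 48 codons in its leader (chromosome 1, 45964496 to 45964639, minus strand). Slc11a2 has one of 17 codons over 2 exons (chromosome 15, 100310134 to 100320883, minus strand) and a downstream frame of 31 codons (100292454 to 100292546). Tfrc has one of 12 codons over 2 exons (chromosome 16, 32427830 to 32431996, plus strand). None is listed for Ftl1, Cp, Hmox1, Aco1 or Ireb2, and of these only Ftl1 and Cp passed the test of footprints per RNA.

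Other genes of iron handling were read from 6 further lists, also chosen with earlier results of these data known. In input RNA, 27 of the 92 genes tested in them were higher and 3 lower in KO cells, where 9.56% of all genes tested were higher and 7.21% lower. The counts of single lists below stand beside the same shares. Among uptake and export genes 3 of 13 were higher and 2 lower, with a median log2 fold change of 0.18 against -0.01 over all genes. They included the ferrireductases Steap1 (0.82) and Steap3 (0.32) and the metal importer Slc39a14 (0.26), all higher, and the haemopexin receptor Lrp1 (-0.98), lower. Of iron sensing and ferritin turnover genes 2 of 11 were higher, Keap1 (0.26), which holds the factor NRF2 down, and Skp1 (0.24), part of the ligase that degrades IRP2.

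Of 5 other mRNAs with a described iron-responsive element, Epas1, which encodes HIF-2α, was higher in input RNA (log2 fold change 0.83, SE 0.13, adjusted p = 0.00873). Its footprints stood higher by a similar amount without passing the test (1.00, SE 0.15, adjusted p = 0.0507). Of haem genes 5 of 19 were higher and 1 lower, the higher ones including the biliverdin reductases Blvra (0.48) and Blvrb (0.42), the mitochondrial transporter Abcb10 (0.51) and the haem transporter Slc48a1 (0.25). Of iron-sulfur cluster genes 8 of 29 were higher and none lower, among them Ciapin1 (0.38), Nubp2 (0.39), Abcb8 (0.30) and the chaperone Hspa9 (0.26). Of other targets of NRF2 and BACH1, the regulators of Hmox1 transcription, and genes of lipid peroxide defence, 8 of 15 were higher and none lower. These included the metallothioneins Mt1 (0.66) and Mt2 (0.46), glutathione reductase Gsr (0.41) and thioredoxin reductase Txnrd1 (0.38).

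Footprints per RNA in the 6 lists were lower in 12 of 93 genes tested and higher in 0, where 3.4% of all genes tested were lower and 0.788% higher, a share at which fewer than 1 of 93 genes would be higher. The medians lay below that of all genes (-0.05) in 4 lists, from -0.42 in uptake and export genes to -0.24 in NRF2 and BACH1 targets, and above it in the sensing list (-0.03) and the other iron-responsive element mRNAs (0.08). The median of the 7 melanocyte markers also lay below that of all genes, at -0.25, with 2 of 7 lower. Steap1 (-0.77), Steap3 (-0.58), Slc39a14 (-0.47), Keap1 (-0.50), Blvrb (-0.69), Mt1 (-0.80), Mt2 (-1.46) and Abcb8 (-0.92) passed in both tests, with more RNA and fewer footprints per RNA in KO cells. Both tests use the same input RNA libraries, so an error that raises RNA also lowers footprints per RNA. The share of all genes that passed both in these directions was not counted. Among the others, Srxn1 (-0.91), Slc7a11 (-0.72) and the cluster factor Iba57 (-1.20) were lower in KO cells. In footprints alone, only Lrp1 (-0.79) and Abcb8 (-0.58) passed, both lower.

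The single-cell libraries placed the same genes in the cells of the tumour. They held 8454 barcodes in the KO and 8341 in the SCR library, of which 8359 KO and 8239 SCR barcodes were kept, with medians of 8034 UMIs per KO and 8906 per SCR cell, and 116 barcode sequences occurred in both. With 1 library for each genotype no test between genotypes is possible: levels are UMIs summed over a class and scaled per total UMIs as CPM, and the 95% intervals given cover counting error only. Cells were clustered without the iron genes and named from marker genes by a rule set after the clusters were seen. Macrophage-like clusters held 3120 KO and 3071 SCR cells, monocyte-like clusters 2272 KO and 1869 SCR, T-cell-like clusters 797 KO and 624 SCR, and the type 2 dendritic-cell-like cluster 468 KO and 443 SCR cells. The sort was for CD45, yet 250 KO and 187 SCR cells were melanoma-like, with 3219 CPM of Pmel, a melanosome gene, in KO and 3399 in SCR, and 14.2 CPM of Ptprc, the CD45 gene, in KO and 17.7 in SCR. Their medians of 31342 UMIs in KO and 36465 in SCR cells were far above those of the whole libraries, and their summed macrophage markers were 1096 CPM in KO and 1235 in SCR, where macrophage-like cells had 21680 in KO and 22568 in SCR. Haemoglobin genes were at or near 0 in every class, with at most 1.20 CPM of Hba-a1.

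Doublet calling marked 2 KO and 0 SCR barcodes and did not work. Of T-cell-like barcodes 62.91% carried 3 or more UMIs of the macrophage genes C1qa, C1qb and C1qc, of B-lineage-like barcodes 21.97% and of NK-cell-like barcodes 3.07%, so T-cell-like and B-lineage-like values are given with and without these barcodes. Interferon response genes led macrophage-like cluster 6, and histone genes led cluster 19.

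Ferritin and haem oxygenase transcripts were highest in macrophage-like cells among the named classes of at least 50 cells per library, and Tfrc was highest in melanoma-like cells. Fth1 stood higher still in the smaller neutrophil-like class and in unnamed clusters 11 and 13. In monocyte- and macrophage-like cells together, Hmox1 was lower in the KO tumour, at 0.600 of its SCR level, and Cp was higher, at 1.71. These 2 of 9 genes were the ones at least 1.5-fold apart, 1 in each direction, where 0.862% of 12297 genes of at least 100 UMIs were higher and 0.911% lower. Both ferritins stood lower by less than that.

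Hmox1 had 726 CPM in KO against 1209 in SCR monocyte- and macrophage-like cells (ratio 0.600, interval 0.593 to 0.608). It was lower in 7 of the 8 clusters of these cells, with ratios from 0.540 in monocyte-like cluster 10, led by Spp1 and Ccr2, to 0.895 in macrophage-like cluster 6. The exception was monocyte-like cluster 14, led by the interferon-induced genes Ly6i and Ms4a4c, with 422 in KO against 347 in SCR cells (ratio 1.22, interval 1.14 to 1.30). The cell shares of these clusters differed between libraries: macrophage-like cluster 7, led by Mmp12 and Fabp5 and highest in Hmox1 (1671 in KO against 2257 in SCR cells), made up 11.1% of these cells in KO and 16.4% in SCR, and cluster 5 made up 11.2% in KO and 6.88% in SCR. Within macrophage-like cluster 4, which held 17.7% of them in KO and 16.3% in SCR, Hmox1 had 837 in KO against 1493 in SCR cells (ratio 0.560).

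Outside the clusters named monocyte- or macrophage-like, Hmox1 went either way. It had 240 CPM in KO against 372 in SCR migratory dendritic-cell-like cells (ratio 0.645, interval 0.562 to 0.739), where 1.79% of genes were at least 1.5-fold lower. Neutrophil-like cells, only 45 in KO and 64 in SCR, had 337 in KO against 603 in SCR (ratio 0.559, interval 0.429 to 0.724), where 10.3% of genes were at least 1.5-fold lower. Without barcodes of mixed lineage, 1 in KO and 1 in SCR, neutrophil-like cells had 357 in KO against 511 in SCR (ratio 0.698, interval 0.530 to 0.915), no longer 1.5-fold apart. Plasmacytoid dendritic-cell-like cells, 37 in KO and 39 in SCR, had 219 in KO against 415 in SCR (ratio 0.527, interval 0.384 to 0.716), where 7.96% were that far lower, and a ratio of 0.289 without barcodes of mixed lineage. Type 2 dendritic-cell-like cells ran the other way, with 268 in KO against 194 in SCR (ratio 1.38, interval 1.27 to 1.51, and 1.26 to 1.74 over 6 alternatives), while their summed macrophage markers were 6529 in KO against 5489 in SCR. The part of these transcripts in that value was not tested. Unnamed cluster 16, led by Cd209f and Lyve1, also had more, 1117 in KO against 704 in SCR (ratio 1.59, interval 1.42 to 1.77), where 4.25% of genes were at least 1.5-fold higher. Its summed macrophage markers, 25694 CPM in KO and 28018 in SCR, were above those of macrophage-like cells (21680 in KO and 22568 in SCR), although the naming rule left it unnamed. Unnamed cluster 11, led by Cma1 and Mcpt4, had 23203 CPM of these markers in KO and 21336 in SCR. Its Hmox1 ratio was 0.598, where 2.73% of genes were at least 1.5-fold lower. Unnamed cluster 18, led by Neat1, had 474 in KO against 1271 in SCR (ratio 0.373, interval 0.338 to 0.411), where 2.46% were at least 1.5-fold lower. Unnamed cluster 13, led by Cxcl3, Inhba and Arg1 and with 424 KO and 1027 SCR cells, had among the highest levels, 1595 in KO against 1831 in SCR (ratio 0.871). NK-cell-like cells gave the lowest level, 34.0 in KO against 44.8 in SCR from 12 KO and 19 SCR UMIs.

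**Figure D4:**
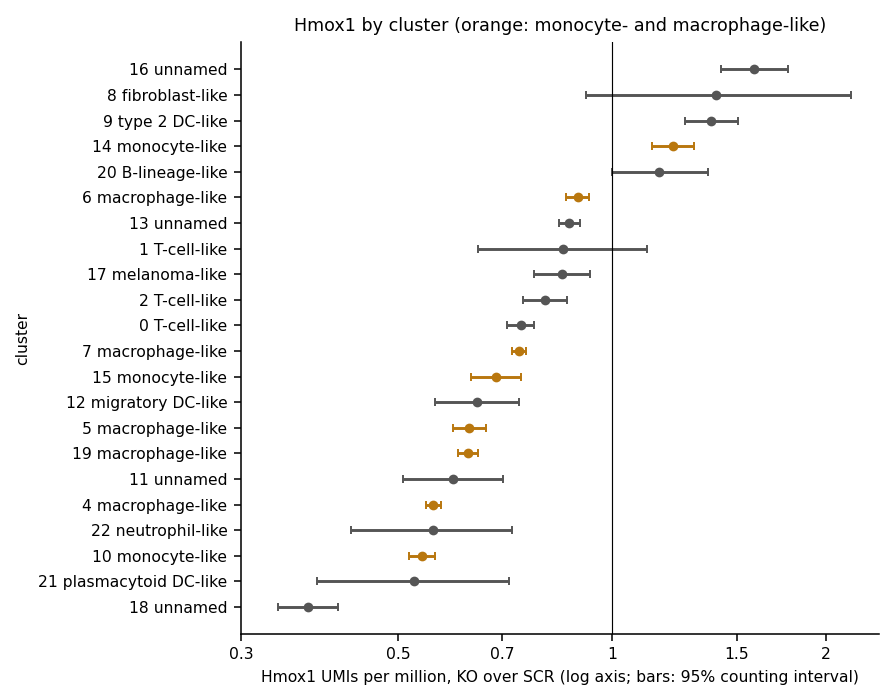
Ratio of Hmox1 CPM, KO over SCR (log axis), in each cluster with at least 100 Hmox1 UMIs; points are clusters, bars 95% counting intervals, and orange marks monocyte- and macrophage-like clusters. Of the 8 orange clusters 7 lie below 1, and clusters 16 and 9 lie at 1.59 and 1.38.

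Both ferritin chains stood lower in the KO tumour in macrophage- and monocyte-like cells. Ftl1 had 15830.4 CPM in KO against 19899 in SCR macrophage-like cells (ratio 0.796, interval 0.793 to 0.798), and 10508 in KO against 11546 in SCR monocyte-like cells (ratio 0.910). Fth1 had 20521 in KO against 23353 in SCR macrophage-like cells (ratio 0.879) and 14348 in KO against 15324 in SCR monocyte-like cells (ratio 0.936). Each chain was lower in 6 of the 8 monocyte- and macrophage-like clusters and higher in 2. The exceptions were clusters 14 and 15 for Ftl1 (ratios 1.02 and 1.06) and clusters 6 and 15 for Fth1 (1.23 and 1.08). Cluster 13 held 33091 CPM of Fth1 in KO against 36411 in SCR cells. Unnamed cluster 11, with 65 KO and 53 SCR cells, had the most Fth1 of all clusters, 46393 in KO against 37790 in SCR. Its Ftl1 was 29833 in KO against 27846 in SCR. Neutrophil-like cells had 22441 of Fth1 in KO against 26131 in SCR. NK-cell-like cells had the lowest ferritin levels, with 2723 CPM of Fth1 in KO against 2405 in SCR.

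Ferritin levels of T-cell-like barcodes were lower once those with macrophage transcripts were left out. Over all T-cell-like barcodes Ftl1 had 11001 CPM in KO against 12156 in SCR (ratio 0.905), and without those carrying C1q transcripts 4611 in KO against 4314 in SCR (ratio 1.07, interval 1.03 to 1.11). Fth1 had 15263 in KO against 15272 in SCR over all of them, and 8571 in KO against 7883 in SCR without. Hmox1 had 635 in KO against 825 in SCR over all of them, and 177 in KO against 324 in SCR without (ratio 0.548, interval 0.468 to 0.639). Among 4494 genes in these remaining barcodes, 2.51% were at least 1.5-fold lower. Barcodes with fewer than 3 C1q UMIs were kept, and the part of macrophage transcripts left in this value was not tested. In B-lineage-like barcodes Fth1 had 12229 in KO against 9083 in SCR over all (ratio 1.35), and 4108 in KO against 2891 in SCR without those of mixed lineage. Neither difference reached 1.5-fold, as 10.3% of genes did upward over all these barcodes and 25.7% without those of mixed lineage.

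Melanoma-like cells set the same genes beside the cultured cells, from 1 library each. Tfrc had 115 CPM in KO against 142 in SCR melanoma-like cells (ratio 0.810, interval 0.737 to 0.891), whereas in culture it was higher in KO cells. Cp had 22.9 in KO against 17.03 in SCR melanoma-like cells (ratio 1.35, interval 1.05 to 1.73), whereas its input RNA was lower in KO cells. Hmox1 had 130.5 in KO against 154 in SCR (ratio 0.849, interval 0.776 to 0.930), and Ftl1 had 5006 in KO against 5525 in SCR (ratio 0.906, interval 0.893 to 0.920), also opposite to culture. Fth1 had 4155 in KO against 3930 in SCR (ratio 1.06, interval 1.04 to 1.08). None of these reached 1.5-fold, as 3.41% of genes did upward and 2.68% downward. The part of macrophage transcripts in these melanoma-like values was not tested. Mettl5 had 22.0 in KO against 31.1 in SCR melanoma-like cells.

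**Figure D5:**
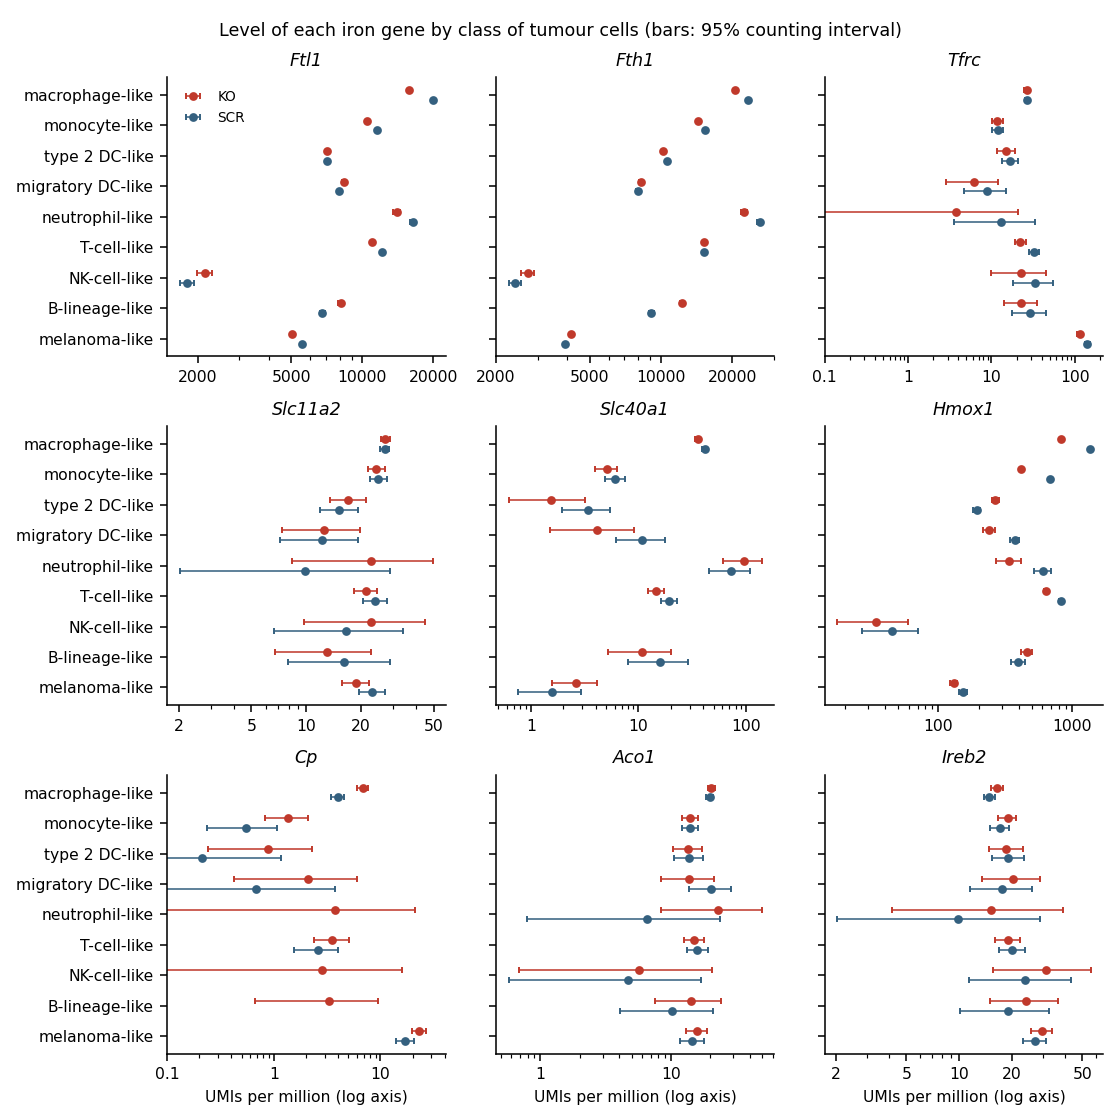
CPM (log axis) of each iron gene in 9 classes of tumour cells, KO above SCR, with 95% counting intervals; a point is missing where no UMI was found. Hmox1 stands highest in macrophage-like cells, Slc40a1 in neutrophil- and macrophage-like cells, and Tfrc and Cp in melanoma-like cells, with the KO point of Hmox1 left of the SCR point in macrophage- and monocyte-like cells.

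Ferroportin transcripts were, among named classes, highest in macrophage- and neutrophil-like cells. Slc40a1 had 35.5 CPM in KO against 41.1 in SCR macrophage-like cells (ratio 0.864, interval 0.807 to 0.924). Monocyte-like cells had 5.06 in KO against 6.10 in SCR, and melanoma-like cells 2.62 in KO against 1.58 in SCR. Neutrophil-like cells stood higher still, with 94.7 in KO against 72.1 in SCR from 25 KO and 22 SCR UMIs, and no UMI was found in NK-cell-like cells. Macrophage-like clusters disagreed in direction, from 50.6 in KO against 81.2 in SCR in cluster 4 (ratio 0.623) to 12.8 in KO against 6.69 in SCR in cluster 5 (ratio 1.91). Of the 8 clusters 4 had an interval wholly above 1, 1 wholly below and 3 including it.

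In monocyte- and macrophage-like cells the intervals of Tfrc, Slc11a2 and Aco1 included a ratio of 1, and that of Ireb2 lay just above it. Tfrc had 22.6 CPM in KO against 23.4 in SCR (ratio 0.966, interval 0.895 to 1.04). In T-cell-like cells it had 22.3 in KO against 32.5 in SCR (ratio 0.685, interval 0.563 to 0.833), and without mixed barcodes 30.2 in KO against 42.8 in SCR (ratio 0.704, interval 0.467 to 1.05). Slc11a2 had 26.4 in both libraries in monocyte- and macrophage-like cells (ratio 0.999, interval 0.931 to 1.07), and its highest level was in unnamed cluster 18, with 78.2 in KO against 74.5 in SCR. Aco1 had 18.7 in KO against 18.4 in SCR (ratio 1.02, interval 0.936 to 1.11) and Ireb2 17.1 in KO against 15.4 in SCR (ratio 1.11, interval 1.02 to 1.22). For Aco1 and Ireb2 all 8 clusters had an interval that included 1.

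Among clusters Cp was highest in unnamed cluster 16 in both libraries, followed by melanoma-like cells in KO, and by fibroblast-like and then melanoma-like cells in SCR. In monocyte- and macrophage-like cells 306 KO and 197 SCR UMIs gave 5.41 CPM in KO against 3.16 in SCR (ratio 1.71, interval 1.43 to 2.06), with 4 of the 8 clusters wholly above 1 and none below. Unnamed cluster 16, whose summed macrophage markers were above those of macrophage-like cells, had 33.7 in KO against 52.6 in SCR (ratio 0.640, interval 0.372 to 1.08). Fibroblast-like cells, 42 in KO and 32 in SCR, gave 5 KO and 22 SCR UMIs, or 7.56 CPM in KO against 42.8 in SCR (ratio 0.176, interval 0.0522 to 0.478). Cp lay under the 100 UMIs from which genes were called there, and of the genes above that 11.0% were at least 1.5-fold higher and 10.8% lower. Ftl1 there had 3818 in KO against 2367 in SCR (ratio 1.61, interval 1.51 to 1.73). The ratio of Ftl1 was below 1.5 with at least 1000 UMIs per cell (1.48) and under 5% mitochondrial UMIs (1.37). Summed macrophage markers of these cells were 3824 CPM in KO against 1162 CPM in SCR, and the part of this in their values was not tested.

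Genes whose levels ran most like those of the members were read over 16 points, 8 named classes in 2 libraries, among 8376 genes. Points of one library share its depth, and the correlations are descriptions. Fth1 ran closest to the lysosomal protease gene Ctsb (r = 0.991), Snx24 and the progranulin gene Grn, and Hmox1 to Ctsb (0.961), Gdf15 and the scavenger receptor gene Stab1. Ftl1 ran closest to its own copy Ftl1-ps1 (0.985), then Lrp12 and Grn. Slc40a1 ran with Gdf15 (0.945), the plasma glutathione peroxidase gene Gpx3 and the growth factor gene Igf1. Tfrc ran with Fkbp3 (0.984) and the ribosomal protein genes Rpl29 and Rpl32, and Aco1 with cytosolic isocitrate dehydrogenase Idh1 (0.970), Yif1b and Atp6v0a1. Slc11a2 had the weakest likeness, with Lgals1 (0.873), Npc1 and Lmna. Ireb2 was closest to Zfp638 (0.965), Usp16 and 4833420G17Rik, and Cp to Mrpl10 (0.9505), Fbxw8 and Ptprm.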

How the data were processed

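Reads were handled with STAR 2.7.10a, StringTie 2.1.7 and Cell Ranger on GRCm39, per the submitters' processing notes, and per the file headers Cell Ranger 8.0.1 made the single-cell matrices. The authors deposited estimated counts per gene for footprints and input RNA, which held whole numbers only. The authors' deposited table gives a translational efficiency ratio per genotype, its log2 fold change, a p-value, an adjusted p-value and a dispersion score, which was not used, per the file headers. Deposited UMI counts per barcode came from 1 library for each genotype, and the library named WT in its file is SCR per the labels. By elimination, POOL columns were read as KO, the other genotype of the labels.

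Count totals per library are given in the report. Counts were tested with edgeR 4.0.16 (quasi-likelihood test, filterByExpr, TMM, Benjamini-Hochberg adjustment over all genes tested, adjusted p below 0.05), with 2 libraries per genotype and assay. Translational efficiency was the genotype by assay interaction over 8 libraries. Per-library ratios used a pseudocount of 0.5 CPM. Data were simulated from the mean levels of these libraries, with the same fixed spread for every gene and changes planted only in well-counted genes. The spread of the real libraries was not used, so the shares found do not measure power or error in them. In the simulated data, the input RNA fit found 96.6% of log2 changes of 1 and 100% of log2 changes of 2. The footprint fit found 99% and 100%, and the translational efficiency fit 58.7% and 92.7%. Of the calls in the simulated data, 6.19%, 1.97% and 1.96% were false in the same order of fits. Changes below a log2 fold of 1 were not simulated. Alternatives were DESeq2 1.42.0, limma 3.58.1 voom, DESeq2's size factors, no filter on low counts, each library left out, a replicate block, and, chosen after seeing the data, ferritin genes summed with their pseudogene copies and barcodes of mixed lineage left out.

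Single cells (at least 500 UMIs and 300 genes, below 10% mitochondrial UMIs, Scrublet calls removed) were clustered with scanpy 1.11.5 (Leiden resolution 1) on genes outside the iron lists. Levels are summed UMIs per total UMIs, as CPM. Their 95% intervals are exact Poisson, those of ratios exact binomial, and both cover counting error only. Genes of at least 100 UMIs in a class were called at 1.5-fold. The members, the gene lists and the marker lists were chosen with earlier results of these data known. Named genes outside the members are, for each list and fit, up to 4 past the threshold with the smallest p, and, for each member, the 3 genes with the highest correlation over classes. Whether same-numbered libraries pair was checked: the correlation of their deviations was 0.0555 in input RNA and 0.0415 in footprints, and the labels state no pairing.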

Additional observations from a re-analysis of the deposited data

Results flagged for a closer look

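Genotype effects differed between assays for 2 genes by the interaction test. For Ftl1 the effect on footprints minus that on input RNA was -1.06 on the log2 scale, and for Cp it was 1.09. Other differences below compare single-cell classes of 1 library per genotype with another class or with culture, and these differences were not tested. In melanoma-like cells the ratio of KO to SCR was 0.906 for Ftl1, 0.810 for Tfrc and 0.849 for Hmox1, below 1, where input RNA of cultured KO cells was higher. For Cp the ratio in melanoma-like cells was 1.35, where input RNA of cultured KO cells was lower. Against monocyte- and macrophage-like cells, with ratios of 0.600 for Hmox1, 0.804 for Ftl1, 0.880 for Fth1 and 1.71 for Cp, some classes lay on the other side of 1. Hmox1 had a ratio of 1.59 in unnamed cluster 16 and 1.38 in type 2 dendritic-cell-like cells. Summed macrophage markers of cluster 16 were above those of macrophage-like cells. Fth1 had a ratio of 1.35 in B-lineage-like barcodes, where 10.3% of genes were at least 1.5-fold higher. In the few fibroblast-like cells Ftl1 had a ratio of 1.61, which was 1.37 under 5% mitochondrial UMIs, and Cp of 0.176 from 5 KO and 22 SCR UMIs. The part of macrophage transcripts in these values was not tested.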

How the results depend on the processing

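Of the 9 genes, 5 passed in input RNA, 2 without the filter on low counts and 2 to 5 with a library left out. Over all genes 3358 passed there, 1193 without the filter and 1031 to 4251 with a library left out. In footprints 0 of 9 passed, and 2 by DESeq2 and 2 without the filter. Over all genes 387 passed in footprints, 1288 by DESeq2, 755 without the filter, 0 with the replicate block (3495 had an unadjusted p below 0.05) and 25 to 128 with a library left out. In translational efficiency 2 of 9 passed, and 0 to 2 with a library left out. Over all genes 973 passed in translational efficiency, 1615 by DESeq2, 581 by limma voom, 363 with the replicate block and 0 to 1187 with a library left out. Under the replicate block Ftl1 and Cp each had an adjusted p of 0.0400 in translational efficiency, and the members' calls were the same in number in all 3 comparisons. Same-numbered libraries share only a number, with 2 pairs. The mean percentile of Ftl1's KO ratio was 1.7, and 2.8 among genes of at least 50 input counts and 7.4 with a pseudocount of 0. Directions that turned lay near 0. In footprints Tfrc had -0.0070 without the filter and -0.12 to 0.22 with a library left out, below 0 without KO replicate 1 or SCR replicate 1. Cp had -0.035 without the filter and -0.024 to 0.073 with a library left out, below 0 without the same libraries, and Aco1 had -0.35 to 0.012, above 0 without SCR replicate 2. In translational efficiency Slc40a1 had 0.0049 by DESeq2, 0.0062 with DESeq2's size factors and -0.23 to 0.093 with a library left out, above 0 without input RNA KO replicate 1, input RNA SCR replicate 1 or footprints KO replicate 2. The cause was not tested. In single cells Cp and Hmox1 were the members past 1.5-fold in monocyte- and macrophage-like cells under all 6 alternatives. These alternatives share the same libraries and most of the same cells. In monocyte-like cells alone, Hmox1 was past 1.5-fold in the main setting but not with doublet calls kept. Low counts limit precision for ferroportin in input RNA and in the small neutrophil-, fibroblast- and plasmacytoid dendritic-cell-like classes, and 1 single-cell library per genotype leaves the spread between tumours unmeasured.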
